A study of Mus musculus with 16 samples.

Results

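Lysosomal genes were followed in CD11b+ myeloid cells of mouse tumours, as 44 genes in all: the membrane proteins, the hydrolases of the lumen and their helpers, the subunits of the proton pump that acidifies the lumen, and Tfeb, which encodes a transcription factor of lysosomal genes. The genes were chosen by name for these roles, and all 44 were found among the 24421 genes counted. Of these, 43 had enough counts to be tested among 9642 genes, and Atp6v0d2 did not pass the filter on low counts. The 16 bulk RNA-seq libraries were made from viable CD45+ TER119- NK1.1- CD11b+ Kaede+ cells sorted from tumours of MC38-Ova, a mouse colon carcinoma line that carries ovalbumin. Hosts were female C57BL/6 mice with a transgene for Kaede, a protein that violet light turns from green to red, and the labels give the treatment as control. Cells that were in the tumour when it was illuminated were Kaede-red, and cells that entered afterwards were Kaede-green. Each colour was sampled at 24h and at 72h after photoconversion with 4 libraries per group. Kaede-red cells had thus spent at least 24h or at least 72h in the tumour, and Kaede-green cells at most that long. The sort takes all CD11b+ NK1.1- leukocytes, so that a library can hold several myeloid cell types, and converted cells are red to the extent that the illumination reached them.

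The lysosome is the acidic compartment in which macrophages digest what they take up. Hydrolases are made in the secretory pathway, tagged with mannose 6-phosphate and delivered to it, and most of them work at the low pH that the V-ATPase, a rotary proton pump of a membrane sector and a peripheral sector, sustains by splitting ATP. TFEB and its relatives bind a short palindromic element, the CLEAR motif, which lies near the start of many lysosomal genes and contains the E-box core CACGTG. The maturation of a monocyte into a macrophage is known to go along with a growing lysosomal compartment.

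Total counts per library ran from 3216858 to 15423085. The ribosomal RNA gene Rn45s took 79.0 to 93.4% of them in Kaede-green and 55.8 to 84.9% in Kaede-red libraries, and the genes Lars2 and Mir6236 together took 29.2 to 51.3% of the remainder in Kaede-green and 3.05 to 27.8% in Kaede-red libraries. Outside Rn45s there were 468092 to 912689 counts per Kaede-green and 758192 to 5472477 per Kaede-red library, so the Kaede-green values are the less precise. Levels are therefore given in CPM, counts relative to a library size corrected with TMM factors, which rest on the bulk of the genes. A count of 0 allows up to 3 counts, or 0.73 to 1.67 CPM in Kaede-green and 0.0632 to 0.544 CPM in Kaede-red libraries, for counting error only. Kaede-red 24h replicates 3 and 4 stood apart from the other Kaede-red libraries by Rn45s shares above 80% (83.1 and 84.9%). These shares lay above that of Kaede-green 72h replicate 4 (79.0%) and below those of all other Kaede-green libraries (86.5% or more). Results that rest on these 2 Kaede-red libraries are given with and without them.

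The cell type that the labels give was checked against marker genes. All 9 macrophage markers were detected in every library. Over both times, 7 of these were higher in Kaede-red cells (Adgre1, Csf1r, C1qa, C1qb, C1qc, Mertk and Itgam, the gene of CD11b) and Lyz2 was lower. Fcgr1 was not called (-0.003). At 24h 5 were higher, while Csf1r and Itgam had differences of 0.32 and -0.02 that were not called. At 72h Lyz2 was not called lower. The list summed to 829.75 to 2044 CPM in Kaede-green and 636 to 1388 CPM in Kaede-red libraries. Of the 6 monocyte markers, 4 were lower in Kaede-red cells over both times, among them Plac8, Vcan and Chil3. Ly6c2 and Ccr2 were not called. At 72h only Plac8 was called lower, and Vcan had a positive difference of 0.36 that was not called. The summed level of the list was 715 to 1610 CPM in Kaede-green against 483 to 749 CPM in Kaede-red libraries. Fibroblast markers summed to 43.6 to 57.3 CPM in Kaede-green and 12.8 to 40.1 CPM in Kaede-red libraries, with Col1a1, Col1a2 and Col3a1 lower in Kaede-red cells. Endothelial markers summed to 10.7 to 19.5 against 19.1 to 37.1 CPM, with Pecam1 and Kdr higher but Cdh5 lower in Kaede-red cells. Of 12 neutrophil markers counted, 6 were at 0 in more than 8 of the 16 libraries, and the list summed to 9.42 to 12.9 CPM in Kaede-green and 9.62 to 23.9 CPM in Kaede-red libraries. Dendritic cell markers summed to at most 13.0 CPM, erythroid markers to at most 11.3 CPM, T and NK cell markers to at most 5.73 CPM, and B cell, tumour epithelial and mast cell markers to less. What these cells contributed to the lysosomal values was not tested, and in bulk libraries a larger share of cells rich in lysosomal RNA cannot be told apart from more of that RNA per cell.

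Promoters are shown first, because the CLEAR motif is the sequence feature by which lysosomal genes are known. RefSeq promoters of GRCm38.p6, from 250 bases before to 50 after the start site, were at hand for 37 of the 44 genes. The core CACGTG, a palindrome and thus the same on both strands, was in 10 of the 37 (27.0%), and each of the 10 also held the longer TCACGTG, searched on both strands, which contains it. The core was in 28.8% of 73 promoters of other lysosomal genes, in 12.4% of 7300 promoters of tested genes and in 8.09% of all 27025 promoters of the table. The 10 windows below have 30 bases each, written 5′ to 3′ on the strand of the gene around a core, with each core in capitals.
Lamp1, chr8:13159096-13159125, plus strand: atatCACGTGgtccagcgccCACGTGatgc
Mcoln1, chr8:3500462-3500491, plus strand: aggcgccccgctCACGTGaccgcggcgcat
Gaa, chr11:119267811-119267840, plus strand: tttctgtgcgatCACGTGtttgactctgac
Gla, chrX:134601182-134601211, minus strand: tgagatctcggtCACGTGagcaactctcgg
Glb1, chr9:114401018-114401047, plus strand: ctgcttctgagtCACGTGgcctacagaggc
Naglu, chr11:101070009-101070038, plus strand: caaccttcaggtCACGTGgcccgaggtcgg
Sgsh, chr11:119355522-119355551, minus strand: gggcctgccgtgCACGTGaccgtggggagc
Arsa, chr15:89477423-89477452, minus strand: tcaactcagtgtCACGTGttgtctgctcct
Atp6v0d1, chr8:105566050-105566079, minus strand: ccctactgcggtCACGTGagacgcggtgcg
Atp6v1a, chr16:44139373-44139402, minus strand: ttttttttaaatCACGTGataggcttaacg

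The promoter of Lamp1 held 4 copies of the core and those of Mcoln1 and Gla held 2 each. In every other promoter of the 10 it stood once. The core was in 5 of 17 promoters of genes that were higher in Kaede-red cells (29.4%), namely Lamp1, Gla, Naglu, Sgsh and Atp6v1a, and in 5 of 20 promoters of genes that were tested and not called (25.0%). A match of these letters is a description of the window and not evidence of binding.

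The genes differed widely in level. Per kilobase of exon and averaged over the 16 libraries, Psap was the most abundant with 123 CPM, ahead of Cd68 with 49.8, Grn with 35.5, Laptm5 with 25.1 and Lamp1 with 24.1 CPM per kilobase. Sgsh with 0.183 and Atp6v0d2 with 0.0983 CPM per kilobase closed the order. Psap alone made up 20.2 to 29.3% of the summed CPM of the 44 genes in each library.

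That sum was 1034 to 1472 CPM in Kaede-green and 1129.6 to 1639 CPM in Kaede-red libraries at 24h, so the colours overlapped. At 72h it was 878 to 1305 CPM in Kaede-green and 1825 to 2165 CPM in Kaede-red libraries, and the colours were apart. The 4 Kaede-red 24h libraries split into 1639 and 1539.6 CPM in replicates 1 and 2 and 1202.5 and 1129.6 CPM in replicates 3 and 4, the pair with the high Rn45s shares. The plot of the summed level against the Rn45s share shows both values for each library, and a fit with that share as a covariate is given beside the comparison of the colours.

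**Figure D1:**
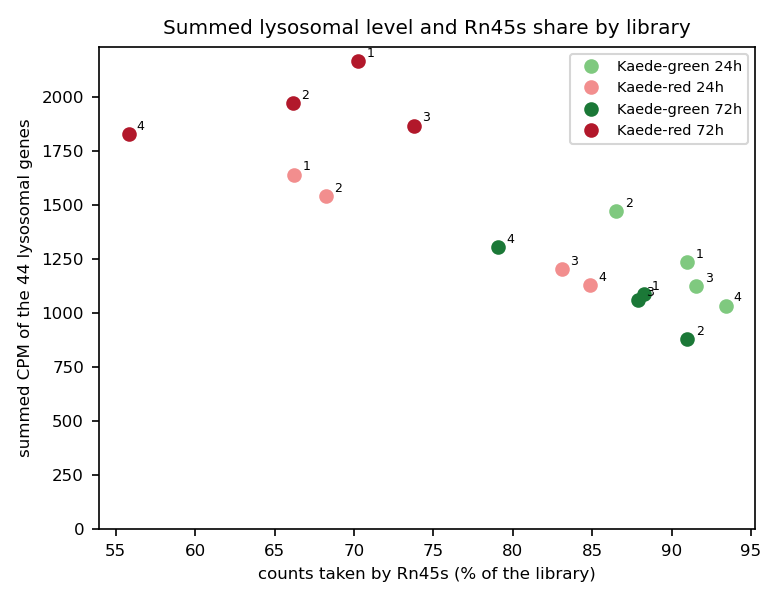
Summed CPM of the 44 lysosomal genes (vertical axis, from 0) against the percentage of counts taken by Rn45s (horizontal axis) in each of the 16 libraries, numbered by replicate. The 4 Kaede-red 72h libraries lie at 1825 CPM or more, and Kaede-red 24h replicates 3 and 4, at 1202.5 and 1129.6 CPM, lie within the Kaede-green range of the summed level. On the horizontal axis these replicates lie between Kaede-green 72h replicate 4 and the other Kaede-green libraries.

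The question that the 2 colours address is how the cells differ with the time they have spent in the tumour. Over both times, 20 of the 43 tested genes were higher in Kaede-red than in Kaede-green cells and none was lower, at an adjusted p under 0.05 in edgeR's quasi-likelihood test. Among all 9642 genes tested, 10% were called higher and 10.3% lower. Of the remaining 23 genes, 16 had a positive difference, so that 36 of the 43 were positive, beside 5253 of all 9642 genes. The median log2 fold change of the 43 was 0.54, beside 0.06 for all genes tested. For 18 of the 43 genes, no Kaede-red library lay below the Kaede-green mean of the same time, beside 12.2% of all genes tested. All 8 Kaede-red libraries lay above all 8 Kaede-green libraries for Idua and Grn, as they did for 1.19% of all genes. For Idua the margin was narrow, 2.459 against 2.341 CPM. Idua and Sgsh had at most 9 and 5 counts in a Kaede-green library. Genes with so few Kaede-green counts passed the filter on low counts through the Kaede-red libraries, where they were high.

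By role, the rises took in all 3 of the other soluble proteins of the lumen, 6 of 11 glycosidases, 3 of 7 tested pump subunits, 2 of 5 sulfatases, and 3 of 8 each of the membrane proteins and the genes of lipid breakdown and export. Tfeb was not called. With the Rn45s share of each library as a covariate, none of the 43 genes was called, in either direction. At 24h this share was 66.2 to 84.9% in Kaede-red and 86.5 to 93.4% in Kaede-green libraries. At 72h it was 55.8 to 73.8% against 79.0 to 91.0%. The colours did not overlap in it at either time, so that the fit can only partly separate the share from the colour. The median of the 43 was then 0.32, and for all 9642 genes the same fit called 51 higher and 105 lower. Scaled by library size alone, all 43 were higher with a median of 2.64, in a fit that moved the median of all genes to 2.22 and called 96.6% of them higher.

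**Figure D2:**
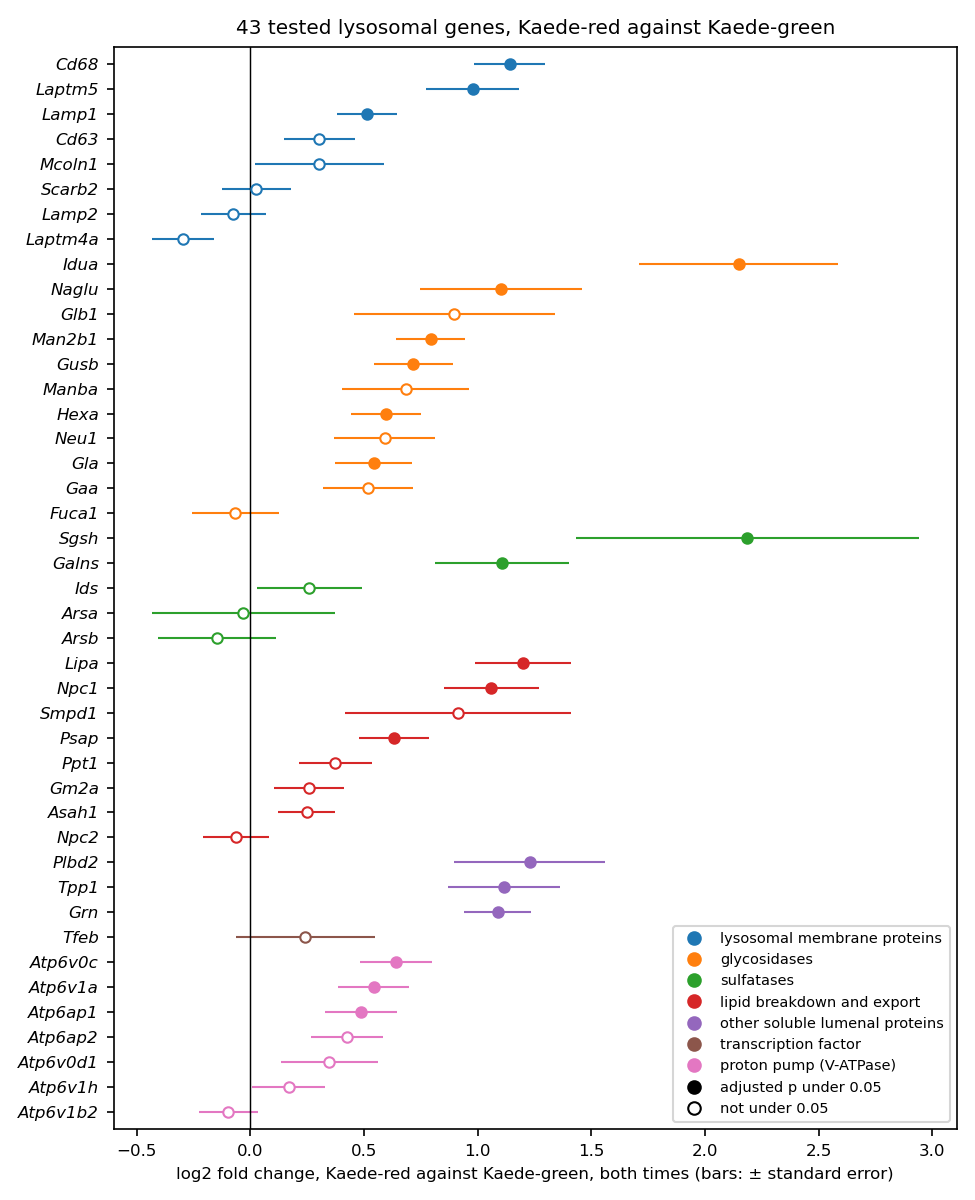
Log2 difference of Kaede-red from Kaede-green cells, both times together (horizontal axis) with its standard error (bars) for the 43 tested lysosomal genes, grouped and coloured by role; filled points have an adjusted p under 0.05. The 20 filled points run from 0.49 for Atp6ap1 to 2.19 for Sgsh, and no filled point lies below 0.

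Cd68, which encodes the macrosialin of macrophage endosomes and lysosomes (chr11:69664213-69666153), had the largest rise of the membrane proteins over both times, with Cd63 ahead of it at 24h and Laptm5 at 72h. It had 44.1, 54.5, 35.7 and 33.9 CPM in Kaede-green and 96.2, 84.0, 53.5 and 55.2 CPM in Kaede-red libraries at 24h, and 35.8, 23.8, 36.0 and 46.8 against 116, 94.4, 95.6 and 95.8 CPM at 72h. At 24h 3 of the 4 Kaede-red libraries were above every Kaede-green library, and at 72h all 4 were. The log2 fold change, the scale of all differences given with ±, was 1.14 ± 0.16 (standard error, adjusted p = 1.99e-06) over both times, with 0.79 ± 0.22 at 24h (adjusted p = 0.0249) against 1.49 ± 0.22 at 72h (adjusted p = 1.39e-05).

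Laptm5 encodes a membrane protein of lysosomes in blood cells, which helps to send receptors to degradation (chr4:130913125-130936141). It stood at 33.5, 99.1, 53.3 and 64.6 CPM in Kaede-green and 110.3, 101, 58.6 and 61.1 CPM in Kaede-red libraries at 24h, where the colours overlapped. At 72h it was at 64.7, 27.2, 48.9 and 97.3 against 202, 168, 151 and 181 CPM. The 72h values of Kaede-red cells were thus above all other libraries. Laptm5 differed by 0.98 ± 0.20 over both times (adjusted p = 0.000628), with 0.40 ± 0.29 at 24h (adjusted p = 0.472) against 1.56 ± 0.29 at 72h (adjusted p = 0.000251).

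LAMP1 and LAMP2 are the heavily glycosylated proteins that line the inner face of the lysosomal membrane. Lamp1 was called higher over both times and Lamp2 was not. Lamp1 (chr8:13159161-13175338) averaged 60.2 ± 8.86 CPM in Kaede-green against 66.6 ± 13.3 CPM in Kaede-red libraries at 24h (mean ± SD, n = 4), and 46.1 ± 7.24 against 84.9 ± 4.19 CPM at 72h. Lamp1 thus rose on the log2 scale by 0.51 ± 0.13 over both times (adjusted p = 0.00525). Lamp2 (chrX:38401357-38456454) was at 139, 111, 113 and 108 CPM in Kaede-green and 99.6, 106, 82.0 and 74.0 CPM in Kaede-red libraries at 24h, and at 73.1, 57.7, 99.5 and 107 against 79.7, 106, 114 and 95.6 CPM at 72h. All Kaede-red libraries lay below all Kaede-green libraries at 24h, and at 72h the colours overlapped. Its difference was -0.07 ± 0.14 over both times (adjusted p = 0.761), -0.38 ± 0.20 at 24h and 0.23 ± 0.20 at 72h, none of them called.

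CD63, a tetraspanin of late endosomes, lysosomes and exosomes, was called at 24h and not at 72h. Cd63 (chr10:128900989-128912822) was at 13.4, 13.5, 8.92 and 9.81 CPM in Kaede-green and 17.9, 19.1, 25.2 and 24.4 CPM in Kaede-red libraries at 24h, with no overlap. At 72h the values were 11.3, 14.7, 16.5 and 20.03 against 12.9, 11.8, 13.5 and 11.9 CPM. Kaede-red cells were then no longer above Kaede-green cells: the log2 fold change was 0.95 ± 0.23 at 24h (adjusted p = 0.0074), -0.34 ± 0.21 at 72h (adjusted p = 0.301) and 0.30 ± 0.16 over both times (adjusted p = 0.176). The remaining membrane proteins, the receptor of β-glucocerebrosidase Scarb2, Laptm4a and the cation channel Mcoln1, ranged from -0.30 to 0.30 over both times and were not called.

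Glycosidases cut sugars from glycoproteins, glycolipids and glycosaminoglycans. Hexa (chr9:59539540-59565109), the α subunit of β-hexosaminidase, had the highest CPM of the 11 on the mean over 16 libraries (19.3, beside 18.8 for Man2b1), while Man2b1 was above it in the Kaede-red 72h libraries. It had 13.4, 18.4, 13.3 and 10.6 CPM in Kaede-green and 26.8, 21.0, 22.3 and 17.6 CPM in Kaede-red libraries at 24h, and 16.8, 15.6, 12.9 and 22.1 against 23.4, 27.3, 22.4 and 24.5 CPM at 72h. The 72h groups did not overlap, though by a narrow margin. Hexa rose by 0.60 ± 0.15 over both times (adjusted p = 0.00488), and at a single time it was not called (adjusted p = 0.0694 at 24h, 0.0754 at 72h).

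Man2b1 (chr8:85083270-85098282), the lysosomal α-mannosidase, was at 12.3, 12.3, 10.4 and 11.9 CPM in Kaede-green and 16.1, 18.5, 13.1 and 10.1 CPM in Kaede-red libraries at 24h. At 72h it was at 13.2, 14.96, 11.9 and 17.2 against 33.2, 33.8, 38.1 and 34.4 CPM, so that all Kaede-red 72h libraries were above all the others. The log2 fold change was 0.79 ± 0.15 over both times (adjusted p = 0.000221), with 0.31 ± 0.22 at 24h (adjusted p = 0.471) against 1.28 ± 0.21 at 72h (adjusted p = 4.24e-05).

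Idua and Naglu encode enzymes of heparan sulfate breakdown, α-L-iduronidase and α-N-acetylglucosaminidase, and both were low. Idua (chr5:108660331-108684557) had 0 to 9 counts per Kaede-green and 20 to 181 counts per Kaede-red library. In CPM this was 0, 0.41, 1.27 and 0 against 2.46, 2.92, 3.63 and 2.71 at 24h, and 0.366, 0, 0.973 and 2.34 against 3.48, 3.68, 3.48 and 3.81 at 72h. No Kaede-red library fell within the Kaede-green range at either time, and the log2 fold change was 2.15 ± 0.44 over both times (adjusted p = 0.000476). Its exons share 124 bases with Dgkq and 141 bases with Slc26a1 on the opposite strand, and the strand setting of the counting is not given in the sources used here, so reads of these genes could not be told apart there. Naglu (chr11:101070012-101077672) was at 1.67, 3.28, 1.27 and 0.818 CPM in Kaede-green and 4.04, 4.62, 2.36 and 2.26 CPM in Kaede-red libraries at 24h, and at 2.19, 0.305, 0.73 and 2.86 against 5.17, 3.53, 2.57 and 2.97 CPM at 72h. The colours overlapped at both times. A log2 fold change of 1.10 ± 0.36 over both times (adjusted p = 0.0252) kept its call in 10 of the 16 fits that left out 1 library.

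The other 7 glycosidases ranged from -0.07 for the fucosidase Fuca1 to 0.90 for the β-galactosidase Glb1 over both times. Of these, Gusb, the β-glucuronidase, and Gla, the α-galactosidase deficient in Fabry disease, were called with 0.72 ± 0.17 (adjusted p = 0.0027) and 0.54 ± 0.17 (adjusted p = 0.0227). Gaa, the acid α-glucosidase, was called at 72h with 0.93 ± 0.27 (adjusted p = 0.0155) and not over both times (0.52, adjusted p = 0.0599). Glb1, Manba and Neu1 had differences of 0.90, 0.68 and 0.59 over both times that were not called. Part of the exons of Glb1 is shared with Tmppe on the same strand, and parts of those of Hexa, Lamp1 and Grn lie opposite Tmem202, Grtp1 and Fam171a2.

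Sulfatases remove sulfate groups from glycosaminoglycans and sulfatides. Galns (chr8:122578242-122611463), which acts on keratan and chondroitin sulfate, was at 0.558, 2.05, 2.29 and 2.86 CPM in Kaede-green and 5.09, 5.23, 1.63 and 3.23 CPM in Kaede-red libraries at 24h, and at 2.56, 0.916, 2.43 and 2.86 against 5.68, 5.77, 4.08 and 5.81 CPM at 72h. At 24h only replicate 3 of the Kaede-red libraries lay within the Kaede-green range, and at 72h none did. The log2 fold change was 1.11 ± 0.30 over both times (adjusted p = 0.00679), or 1.29 ± 0.39 at 72h alone (adjusted p = 0.0208).

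Sgsh (chr11:119343425-119355536), the sulfamidase of heparan sulfate breakdown, had the lowest level of the 43 genes tested. It had 0 counts in 4 of the 8 Kaede-green libraries and at most 5 in the rest, and 0 to 84 counts in Kaede-red libraries. Its levels were 0.558, 0, 0 and 0 against 0.966, 1.09, 0 and 1.03 CPM at 24h, and 0.731, 0, 1.22 and 0.78 against 2.39, 1.64, 0.756 and 1.77 CPM at 72h. Kaede-green values were at most 1.22 CPM, where a count of 0 allows 0.73 to 1.67 CPM. The fitted log2 fold change of 2.19 ± 0.75 (adjusted p = 0.037) rests on these few counts and kept its call in 5 of 16 fits that left out 1 library. As many as 955 bases of its exons lie opposite Card14. Ids (chrX:70343069-70365084), the iduronate sulfatase, with the highest mean CPM of the group but not per kilobase of exon, where Galns had 1.25 and Ids 1.20 CPM, was at 5.58, 8.19, 9.17 and 3.68 against 7.29, 9.37, 5.99 and 4.91 CPM at 24h and at 3.29, 3.05, 5.11 and 6.503 against 3.95, 8.32, 6.503 and 7.29 CPM at 72h. The colours overlapped at both times, with a difference of 0.26 ± 0.23 over both (adjusted p = 0.468). The arylsulfatases Arsa and Arsb were not called either, at -0.03 ± 0.40 and -0.15 ± 0.26, and 690 exon bases of Arsa lie opposite C230037L18Rik.

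Lipids and cholesterol are taken apart and exported by a further 8 of the genes. Psap (chr10:60277627-60302597) encodes prosaposin, the precursor of the saposins that present sphingolipids to their hydrolases, and had the highest level of all. It was at 255, 353, 230.1 and 222 CPM in Kaede-green and 396, 337, 243 and 229.5 CPM in Kaede-red libraries at 24h, and at 273, 203, 237 and 291 against 635, 519, 467 and 498 CPM at 72h. At 24h Kaede-red replicate 1 was the highest library and the other 3 lay within the Kaede-green range, and at 72h all Kaede-red libraries lay above it. Its log2 fold change was 0.63 ± 0.15 over both times (adjusted p = 0.00326), with 0.19 ± 0.22 at 24h (adjusted p = 0.692) against 1.08 ± 0.22 at 72h (adjusted p = 0.000702).

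Lipa (chr19:34492318-34527474) encodes the acid lipase that frees cholesterol from its esters. It was at 5.02, 3.69, 9.43 and 2.86 CPM in Kaede-green and 14.1, 12.2, 10.9 and 9.24 CPM in Kaede-red libraries at 24h, and at 10.2, 5.19, 4.13 and 4.94 against 16.4, 13.8, 13.8 and 16.1 CPM at 72h. A single Kaede-green library at each time, replicate 3 at 24h and replicate 1 at 72h, was far above the others of its group. The log2 fold change was 1.20 ± 0.21 over both times (adjusted p = 7.35e-05), with 1.06 ± 0.31 at 24h (adjusted p = 0.0283) against 1.34 ± 0.29 at 72h (adjusted p = 0.00119).

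NPC1 in the membrane and NPC2 in the lumen pass the freed cholesterol on, NPC2 handing it to NPC1. Npc1, on chromosome 18, was at 6.13, 9.83, 3.31 and 8.997 CPM in Kaede-green and 10.1, 13.3, 11.98 and 7.50 CPM in Kaede-red libraries at 24h, and at 2.56, 6.41, 7.05 and 6.503 against 18.8, 15.7, 15.7 and 14.7 CPM at 72h. All Kaede-red 72h libraries were above every other library, and 511 exon bases of Npc1 lie opposite Rmc1, a gene without counts of its own here. Npc1 differed by 1.06 ± 0.21 over both times (adjusted p = 0.000297), with 0.63 ± 0.30 at 24h (adjusted p = 0.231) against 1.496 ± 0.29 at 72h (adjusted p = 0.000332). Npc2, with means of 131 ± 35.5 against 108 ± 17.0 CPM at 24h and 105 ± 17.7 against 118 ± 17.5 CPM at 72h (mean ± SD, n = 4), differed by -0.06 ± 0.15 (adjusted p = 0.81). Whether the partners differed from each other in this was not tested.

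Gm2a (chr11:55098115-55113029) encodes the activator that lifts GM2 ganglioside out of the membrane for β-hexosaminidase. It was at 41.8, 55.7, 43.1 and 50.3 CPM in Kaede-green and 44.7, 42.1, 33.6 and 25.1 CPM in Kaede-red libraries at 24h, and at 32.9, 27.8, 29.9 and 55.7 against 77.6, 67.3, 67.8 and 62.8 CPM at 72h. Kaede-red cells were thus at the lower end at 24h and above every Kaede-green library at 72h. The difference was -0.39 ± 0.22 at 24h (adjusted p = 0.31), 0.91 ± 0.22 at 72h (adjusted p = 0.0029) and 0.26 ± 0.15 over both times (adjusted p = 0.247). Ppt1, Asah1 and Smpd1, which act on palmitoylated proteins, ceramide and sphingomyelin, had differences of 0.37, 0.25 and 0.91 that were not called.

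The other soluble proteins of the lumen, Grn, Tpp1 and Plbd2, all rose. Grn (chr11:102430315-102437048) encodes progranulin, which is cut into granulins in the lysosome. It was at 58.0, 97.5, 61.9 and 85.9 CPM in Kaede-green and 153, 147, 105 and 103 CPM in Kaede-red libraries at 24h, and at 89.5, 64.7, 69.6 and 90.002 against 247, 214, 195 and 190.3 CPM at 72h. Its groups did not overlap at either time, and the log2 fold change was 1.09 ± 0.15 over both times (adjusted p = 1.26e-06), with 0.75 ± 0.21 at 24h (adjusted p = 0.0215) against 1.43 ± 0.21 at 72h (adjusted p = 8.89e-06).

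Tpp1 (chr7:105744811-105752235) encodes a tripeptidyl peptidase that trims proteins from their N terminus. It was at 9.48, 6.15, 2.04 and 2.45 CPM in Kaede-green and 10.4, 9.12, 6.71 and 6.07 CPM in Kaede-red libraries at 24h, and at 3.66, 1.83, 5.84 and 5.72 against 13.0, 10.7, 10.3 and 12.5 CPM at 72h. The Kaede-green 24h libraries were split into a high and a low pair, so that the colours overlapped there and were apart at 72h. Tpp1 rose by 1.12 ± 0.25 over both times (adjusted p = 0.00119), or 1.42 ± 0.34 at 72h alone (adjusted p = 0.00283).

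Plbd2 (chr5:120483282-120503625), a phospholipase B-like protein of the lumen, was at 2.79, 2.05, 3.31 and 0 CPM in Kaede-green and 6.15, 3.89, 4.72 and 3.36 CPM in Kaede-red libraries at 24h, and at 1.46, 0.305, 3.16 and 5.202 against 7.87, 6.28, 5.90 and 7.08 CPM at 72h. The groups did not overlap at either time. Its log2 fold change was 1.23 ± 0.33 over both times (adjusted p = 0.00749), and 360 bases of its exons lie opposite Sds.

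Of the 7 V-ATPase subunits tested, 3 rose over both times, by 0.49 to 0.64. Atp6v0c (chr17:24163866-24169702), the proteolipid of the rotating ring, was at 61.3, 59.0, 54.0 and 30.7 CPM in Kaede-green and 70.4, 70.8, 57.7 and 55.7 CPM in Kaede-red libraries at 24h, and at 40.6, 26.9, 51.1 and 55.9 against 106, 85.3, 74.6 and 76.2 CPM at 72h. All Kaede-red 72h libraries were above all others. Atp6v0c rose by 0.64 ± 0.16 over both times (adjusted p = 0.00318), or 0.97 ± 0.22 at 72h alone (adjusted p = 0.00218).

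Atp6v1a (chr16:44085402-44139705), the subunit that splits ATP, was at 16.2, 22.1, 25.5 and 14.7 CPM in Kaede-green and 30.5, 29.2, 18.5 and 21.6 CPM in Kaede-red libraries at 24h, and at 21.2, 11.9, 16.5 and 17.9 against 32.3, 29.3, 24.8 and 27.1 CPM at 72h. The colours were apart at 72h only. Atp6v1a rose by 0.54 ± 0.16 over both times (adjusted p = 0.0126), or 0.76 ± 0.22 at 72h alone (adjusted p = 0.0153). Atp6ap1, an accessory subunit, was called as well with 0.49 ± 0.16 (adjusted p = 0.0268). Atp6ap2, Atp6v1h and Atp6v1b2, the latter a partner of Atp6v1a in the catalytic head, were at 0.42, 0.17 and -0.10 and were not called.

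The d subunit of the pump comes in 2 forms, of which Atp6v0d1 (chr8:105524465-105566047) is found in most cells and Atp6v0d2 (chr4:19876841-19922605) is known from osteoclasts and some macrophages. Atp6v0d1 was at 26.2, 20.1, 11.98 and 3.27 CPM in Kaede-green and 16.8, 15.8, 13.1 and 14.3 CPM in Kaede-red libraries at 24h, and at 9.50, 11.6, 11.2 and 10.4 against 16.1, 16.7, 23.0 and 13.7 CPM at 72h. The colours overlapped at 24h and were apart at 72h. It differed by 0.35 ± 0.21 over both times (adjusted p = 0.271) and by 0.68 ± 0.30 at 72h (adjusted p = 0.115), neither of which was called. Atp6v0d2 had 0 counts in 7 of the 8 Kaede-green libraries and 1 in the other, and 0 to 26 counts in Kaede-red libraries. Its levels in Kaede-red cells were 0.615, 0, 0.363 and 0.775 CPM at 24h and 0.783, 0.126, 0.756 and 0.548 CPM at 72h. Kaede-red values reached 0.783 CPM, and a count of 0 allows 0.73 to 1.67 CPM in a Kaede-green library. In the fit without a filter on low counts Atp6v0d2 was called higher over both times, and no fold is given because the Kaede-green libraries are at the limit of detection.

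Tfeb (chr17:47737030-47792419) was at 2.79, 3.28, 2.29 and 2.45 CPM in Kaede-green and 1.67, 2.31, 2.18 and 1.87 CPM in Kaede-red libraries at 24h. At 72h it was at 2.56, 0.611, 2.43 and 2.86 against 3.68, 2.80, 6.81 and 3.41 CPM. Kaede-red cells were thus at the lower end at 24h and at the upper end at 72h, with replicate 3 the highest of all libraries. No difference was called: it was 0.24 ± 0.30 over both times (adjusted p = 0.628), with -0.43 ± 0.45 at 24h (adjusted p = 0.649) against 0.91 ± 0.41 at 72h (adjusted p = 0.129).

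Values of 12 genes are plotted by library, among them Lamp1 and Npc2, which were added after their values were seen. The map of all 43 genes sets out each library against the mean of each gene.

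**Figure D3:**
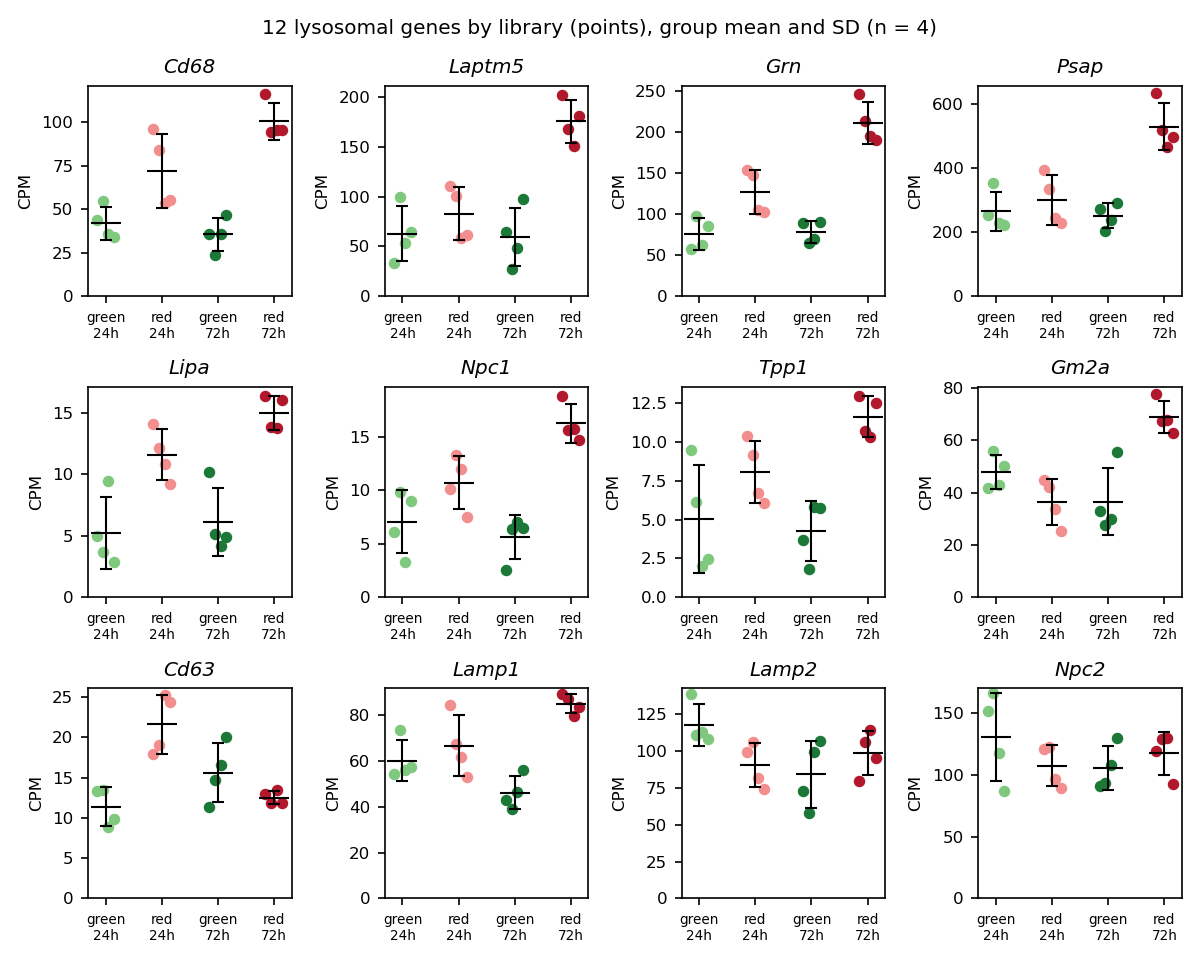
CPM (vertical axes, from 0) of 12 lysosomal genes in each library (points) of the 4 groups, with the group mean (horizontal line) and SD (bars, n = 4). In Cd68, Laptm5, Grn, Psap, Lipa, Npc1, Tpp1, Gm2a and Lamp1 the 4 Kaede-red 72h libraries lie above all Kaede-green 72h libraries, whereas Lamp2 and Npc2 overlap and Cd63 is high in Kaede-red libraries at 24h only.

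**Figure D4:**
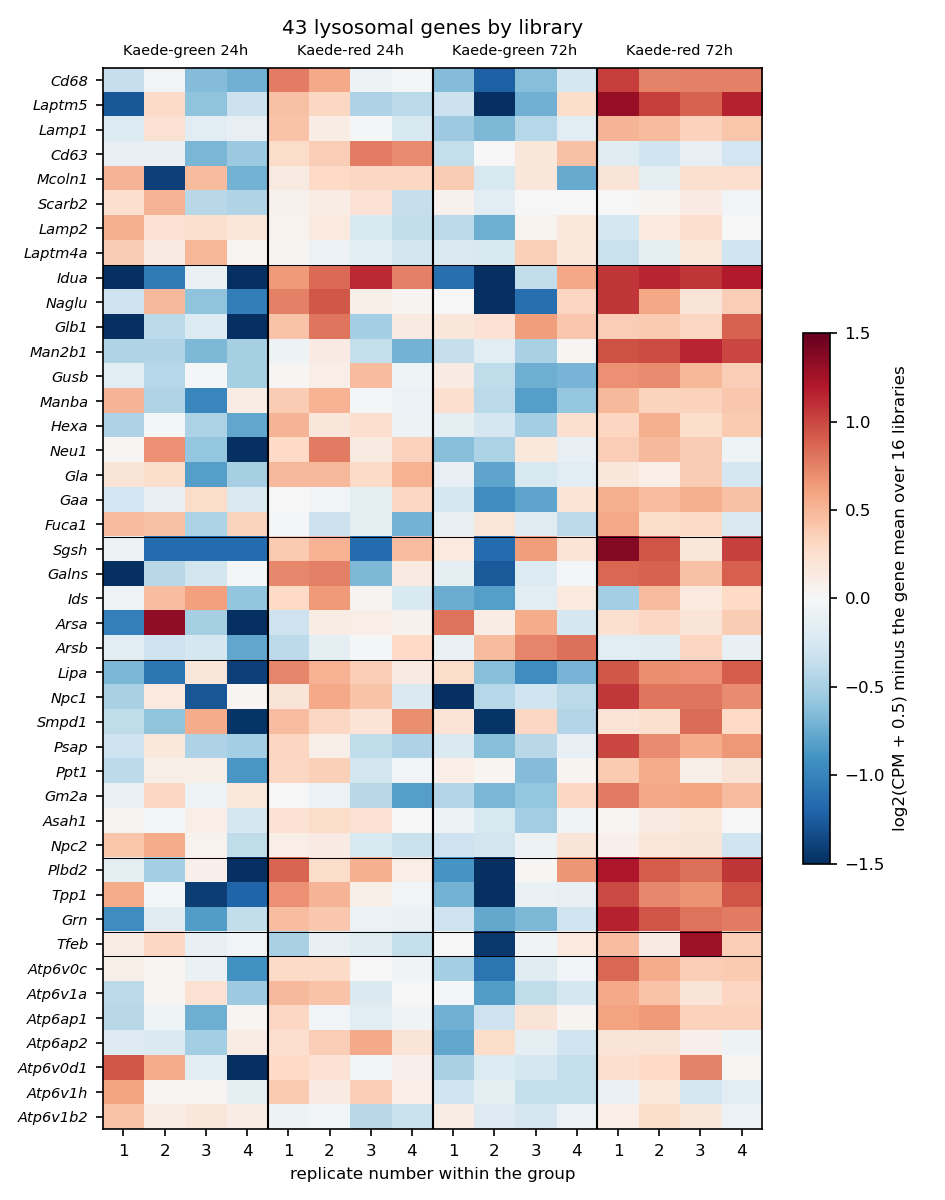
Log2(CPM + 0.5) of the 43 tested lysosomal genes (rows, by role) in the 16 libraries (columns, by group and replicate number), minus the mean of each gene over all libraries; red is above and blue below that mean. Kaede-red 72h libraries are red in most rows, and Kaede-red 24h replicates 1 and 2 are redder than replicates 3 and 4 in rows such as Cd68, Psap and Grn.

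At 24h, 5 of the 43 genes were higher in Kaede-red cells (Cd63, Cd68, Grn, Idua and Lipa) and none was lower, beside 3.22% higher and 4.28% lower among all genes tested. At 72h, 18 were higher and none was lower, beside 8.06% and 8.76% of all genes. The median log2 fold change of the 43 was 0.37 at 24h and 0.76 at 72h, beside 0.05 and 0.03 for all genes tested. Cd68, Grn, Idua and Lipa were called at both times, which is 80% of the 24h calls and 22.2% of the 72h calls. The colours did not overlap for 6 genes that were higher and 2 that were lower (Lamp2 and Atp6v1b2) at 24h, beside 7.09% and 5.43% of all genes, and for 22 that were higher at 72h, beside 13%.

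The number of calls at 24h changed with single libraries. Without Kaede-green 24h replicate 1 only Cd63 was called, without Kaede-green 24h replicate 4 or Kaede-red 24h replicate 1 or 2 there were 2 calls, and without Kaede-green 24h replicate 3 there were 3. In these 5 fits 1.93 to 2.6% of all genes were called higher. Over all 16 fits that left out 1 library, the 24h differences stayed positive, from 0.62 to 0.94 for Cd68, 0.63 to 0.89 for Grn, 0.84 to 1.61 for Lipa, 2.01 to 4.26 for Idua and 0.81 to 1.04 for Cd63. Without Kaede-red 24h replicates 3 and 4 together, 3 genes were called at 24h (Cd68, Grn and Lipa, but not Cd63 or Idua), with a median of 0.55, beside 2.15% of all genes. Over both times 21 were called higher in that fit, beside 9.17% of all genes. With the Rn45s share as a covariate, 1 gene (Cd63) was called at 24h and none at 72h, while of all 9642 genes 88 and 26 were called higher.

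Whether the red-green difference changed from 24h to 72h was tested directly. It was called for 2 of the 43 genes, beside 0.425% of all genes with a rise and 0.332% with a fall of the difference. For Gm2a it rose by 1.30 ± 0.31 (adjusted p = 0.0445) and for Cd63 it fell by 1.28 ± 0.31 (adjusted p = 0.0482). Both values are close to the threshold: Gm2a kept its call in 5 and Cd63 in 4 of the 16 fits that left out 1 library, with adjusted p up to 0.12 and 0.137. Without Kaede-red 24h replicates 3 and 4 the changes were 1.03 for Gm2a and -1.08 for Cd63, and neither was called (adjusted p = 0.395 for each). DESeq2 called a rise for 5 of the genes, with Lamp1, Man2b1, Psap and Atp6v1b2 beside Gm2a, and for 5.58% of the 4052 genes it adjusted. In edgeR, Laptm5 and Psap, called at 72h and not at 24h, had an adjusted p of 0.155 and 0.148 for the change. In all, 31 of the 43 genes had a larger difference at 72h, beside 4468 of all 9642 genes.

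**Figure D5:**
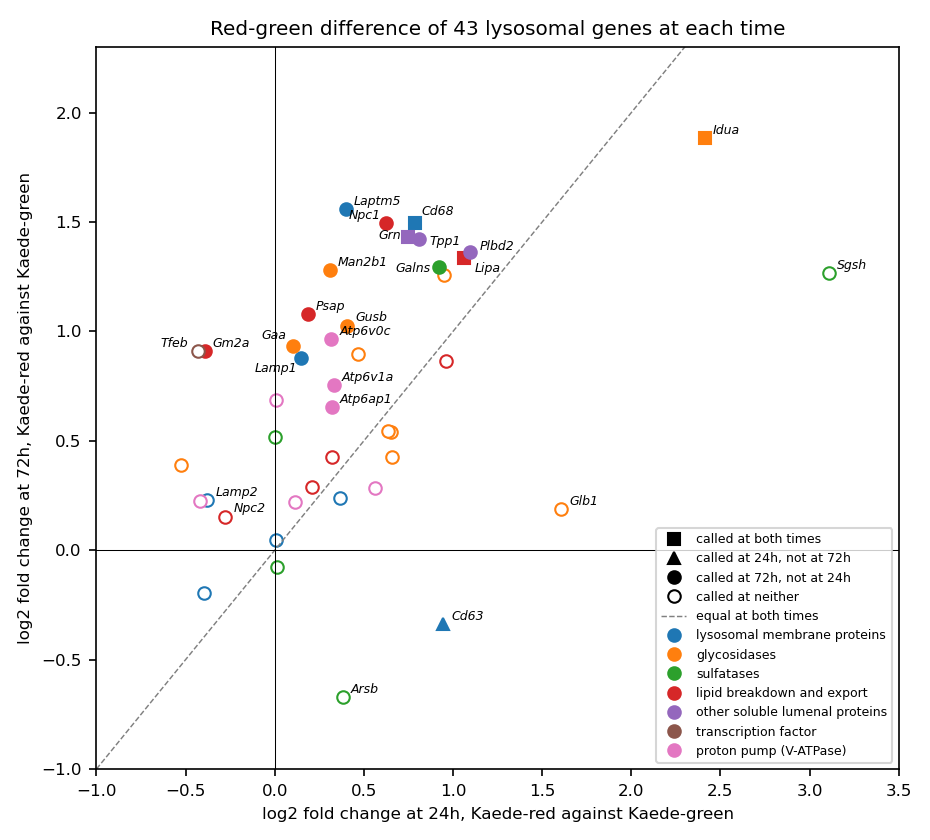
Log2 fold change of Kaede-red against Kaede-green cells at 72h (vertical axis) against that at 24h (horizontal axis) for the 43 tested lysosomal genes, coloured by role; the dashed line marks equal differences at both times. Most points lie above the dashed line, Idua, Lipa, Cd68 and Grn (squares) are called at both times, and Cd63 (triangle) is called at 24h only.

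Within Kaede-green cells, 72h was set against 24h to ask whether newly entered cells change as the window of entry widens. None of the 43 genes was called by edgeR, nor was any of the 9642 genes, while 4 of the 43 and 8.66% of all genes had an unadjusted p under 0.05, and DESeq2 called none of the 43. The median log2 fold change of the 43 was -0.08, beside 0.03 for all genes tested. Lamp2 and Atp6v1b2 were lower and Glb1 and Arsb higher at 72h with no overlap between the groups, beside 1.08% and 1.92% of all genes.

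Within Kaede-red cells, 5 of the 43 genes were higher at 72h than at 24h and Cd63 was lower, beside 4.92% and 3.76% of all genes. Man2b1 rose by 1.27 ± 0.20 (adjusted p = 0.000458), Laptm5 by 1.09 ± 0.28 (adjusted p = 0.0155) and Gm2a by 0.92 ± 0.21 (adjusted p = 0.0065). Psap rose by 0.81 ± 0.22 (adjusted p = 0.0186) and Grn by 0.73 ± 0.20 (adjusted p = 0.0212), and Cd63 fell by 0.79 ± 0.20 (adjusted p = 0.0133). For each of the 6, all 4 libraries of one time lay beyond all 4 of the other. Such a gap was seen for 11 of the 43 genes upward and 1 downward, beside 11.8% and 8.76% of all genes. Without Kaede-red 24h replicates 3 and 4, none of the 6 was called (adjusted p = 0.10 for Man2b1 and 0.337 or more for the rest), in a fit that leaves 2 libraries in that group and called 2 genes higher and 7 lower of all 10385. The differences then had the same signs, at 0.98 for Man2b1, 0.70 for Laptm5, 0.63 for Gm2a, 0.50 for Psap, 0.46 for Grn and -0.60 for Cd63. Without either of them alone, or without Kaede-red 72h replicate 1, only Man2b1 and Gm2a were called higher, beside 1.73 to 1.83% of all genes, and without either of the 24h libraries Cd63 was no longer called.

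Other lysosomal genes were listed for comparison, 93 in all, of which 83 were tested. Over both times 23 were higher (27.7%) and 4 lower (4.82%) in Kaede-red cells, with a median of 0.41, beside 10% and 10.3% of all genes. With the Rn45s share as a covariate 1 of the 83 was called, with a median of 0.23. Among the other hydrolases and activators, 10 of 23 were higher and none was lower, among them Ifi30, a thiol reductase that unfolds antigens, with 0.85 ± 0.17 (adjusted p = 0.000253). Other membrane proteins and channels had 4 of 19 higher, with Slc29a3, a nucleoside transporter, at 1.43 ± 0.24 (adjusted p = 3.39e-05) and Mfsd1 at 0.51 ± 0.16 (adjusted p = 0.0187). Other pump subunits had Tcirg1, the a3 form of the membrane sector, higher by 0.63 ± 0.15 (adjusted p = 0.00243) and Atp6v1f of the central stalk lower by 0.80, with a log2 fold change of -0.80 ± 0.17 (adjusted p = 0.000694), out of 10 tested. Sorting genes had 6 higher and 1 lower of 17, and of 14 relatives of TFEB and genes of nutrient sensing at the lysosome, Mitf and Rragc were higher and Tfec and Lamtor5 lower.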

How the data were processed

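Bulk RNA-seq libraries were made from 5 ng total RNA with a kit for stranded total RNA. According to the methods and labels, the authors trimmed reads with Trim Galore, checked them with FastQC, used HISAT2 for alignment to mm10 and featureCounts for counting; versions, the gene annotation and the strand setting are not given in the sources used here. The deposited values are raw counts per gene, whole numbers without normalization, for 24421 genes in 16 libraries. No column was left unused. Within groups, chi-square per gene between replicates was 3.21 to 95.6 over 24 pairs, so no library repeated another. The study describes the libraries as tumours of independent mice, and whether a Kaede-green and a Kaede-red library came from the same mouse is not stated.

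Counts were tested with edgeR 4.0.16 in R 4.3.3 in 1 fit of all libraries (filterByExpr, 9642 genes, TMM factors, 1 mean per group, quasi-likelihood test), with Benjamini-Hochberg adjustment over all genes and a call at an adjusted p under 0.05. Log2 fold changes are unshrunk. The median standard error was 0.27 for both times together, 0.39 for 24h and 0.36 for 72h. The script was tested on simulated data. Alternatives were DESeq2 1.42.0, other scalings, filters and covariates, a replicate block and leaving out each library. Coordinates and exon lengths came from GENCODE genes of GRCm38, the assembly called mm10, and promoters from RefSeq. The members, lists and tests were chosen with earlier results of these data known. Named with values were, per role, the 2 largest rises and falls among called genes, the gene with the highest CPM, genes called between times, Tfeb and both d subunits of the pump, and of the other lists the 2 largest rises and falls with a log2 CPM of at least 4. Other genes were named after their values were seen. Values of 2 genes of the comparison lists are not reported here.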

Additional observations from a re-analysis of the deposited data

Results flagged for a closer look

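In 83 combinations of gene and group with at least 10 counts, the highest and the lowest library were compared with the other 3 of the group, and 5 had a library far from the rest. Chance alone flags about 1 in 20 groups. Lamp2 was at 138.8 CPM in Kaede-green 24h replicate 1 and at 108.4 to 112.9 CPM in the others. Cd68 was at 116.2 CPM in Kaede-red 72h replicate 1 and at 94.41 to 95.8 CPM in the others. Galns was at 4.083 CPM in Kaede-red 72h replicate 3 and at 5.676 to 5.812 CPM in the others. Sgsh was at 0 CPM in Kaede-red 24h replicate 3 and at 0.9662 to 1.095 CPM in the others. Npc1 was at 2.559 CPM in Kaede-green 72h replicate 1 and at 6.412 to 7.054 CPM in the others.

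Of the genes named by rule, Gm2a and Cd63 differed between the times in their red-green log2 difference, by the test of the change itself. The change was 1.303 for Gm2a (adjusted p = 0.04455) and -1.283 for Cd63 (adjusted p = 0.04817), in opposite directions.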

How the results depend on the processing

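Scaled by library size alone, 43 genes were called higher for each of 24h, 72h and both together, and none between the times or in the change. This scaling called 83.9 to 96.6% of all genes higher and moved their median to 2.05 to 2.35, so that signs turn with that shift, as for Lamp2 over both times (2.047) and at 24h (2.01), Cd63 at 72h (1.558), Gm2a at 24h (1.984) and Tfeb at 24h (1.841). With the Rn45s share as a covariate, 0 genes were called over both times and at 72h, 1 at 24h, 1 higher and 0 lower between the times in Kaede-red cells, and 0 for a fall of the change. DESeq2 called 1 gene lower over both times (Laptm4a) and 5 for a rise of the change, beside 10.4% and 5.58% of the genes it adjusted. Without a filter there were 2 rises and 0 falls of the change and 0 falls in Kaede-red cells, beside 0.504%, 0.523% and 1.43% of all genes. Offsets for GC content and length gave 1 lower gene at 24h (Atp6v1b2) and 1 at 72h (Cd63), beside 4.33% and 8% of all genes. Without Kaede-red 24h replicates 3 and 4, an alternative chosen after seeing the data like the offsets, 3 genes were higher at 24h and 0 changed in Kaede-red cells or in the change. Of all genes, that fit called 2.15% higher at 24h. It called 0.0193% higher and 0.0674% lower between the times in Kaede-red cells, and 0.00963% for a fall of the change. Leaving out 1 library gave 17 to 22 higher genes over both times, 1 to 5 at 24h and 12 to 20 at 72h. Of all genes, 7.58 to 10.1%, 1.93 to 3.12% and 5.3 to 8.95% were called higher in these fits. In Kaede-red cells 2 to 5 genes were higher and 0 to 1 lower, beside 1.73 to 5.8% and 1.1 to 5.45% of all genes. The change had 0 to 2 rises and 0 to 1 falls, beside 0.0099 to 0.937% and 0.0099 to 0.608%. The count at 72h was lowest, 12, without Kaede-green 72h replicate 2, beside 5.38% of all genes.

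Correlations of same-numbered libraries were 0.0493 to 0.153 at 24h and -0.0183 to 0.0287 at 72h, and the numbers were not taken to pair single libraries. At 24h the colours nevertheless shared a split. All correlations within replicates 1 and 2 and within replicates 3 and 4 were positive (0.0493 to 0.153). Between these sets all were negative (-0.132 to -0.027). What lay behind this split was not tested. With the replicate number as a block, 20 genes were higher over both times, 5 for 24h and 18 for 72h, beside 9.3%, 2.87% and 7.99% of all genes. In Kaede-red cells 5 were higher and 1 lower, beside 5.2% and 3.9% of all genes. There was 1 rise and 1 fall of the change, beside 1.1% and 0.612%. Of 3555 values of single genes under an alternative, 3355 stayed on the same side of the threshold, with the direction compared for called values only. A further 148 lost a call and 47 gained one with the sign kept, and 5 changed sign where either fit made a call. Depth limits genes with few Kaede-green counts, which summed over the 8 libraries to 1 for Atp6v0d2, 11 for Sgsh, 18 for Smpd1, 20 for Idua, 31 for Glb1 and 39 for Naglu.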

Other observations

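Psap took a larger part of the summed lysosomal CPM in Kaede-red 72h libraries, 25.0 to 29.3%, than in the Kaede-red 24h libraries, 20.2 to 24.2%, with Kaede-green libraries at 20.5 to 25.2%. As a share of all counts outside Rn45s, the 44 genes took 0.392 to 0.656% in Kaede-green and 0.874 to 1.58% in Kaede-red libraries, with no overlap. This share moves with the counts of Lars2 and Mir6236 in the remainder, which were given above. In summed CPM the colours did overlap at 24h, with 1034 to 1472 in Kaede-green and 1130 to 1639 in Kaede-red libraries. The gap in the share is therefore not read as a gap in level.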
